A study of Mus musculus with 22 samples.

Results

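The neutrophil granule genes described here are S100a8, S100a9, Mmp8, Mmp9, Ltf, Camp, Ngp, Retnlg, Csf3r and Cxcr2, followed through sorted alveolar macrophages and sorted CD11b+Ly6C hi monocytes. They were chosen by name as neutrophil genes present in both count tables, and because their levels in macrophages 14 d post injury had stood out in these same data. They are 10 of the 31116 genes that both tables hold. The values that chose them, the macrophage levels at 14 d, are given as a description with no p-value for any member. Where members past a threshold are counted on them, beside the share of all genes, nothing is read from the count. Csf3r and Cxcr2 code for receptors and S100a8 and S100a9 for mainly cytosolic proteins, so the name is loose for these 4 genes.

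All 22 samples came from C57BL/6 mice with the genotype SP-CI73T mutant, so the controls carried the mutant allele too. In the injured groups 1 oral dose of tamoxifen removed a neomycin cassette and raised expression of the mutant surfactant protein C, through an estrogen receptor-controlled Flp-O recombinase in the Rosa26 locus of adult homozygous mice. Macrophages (SigF+CD11b-) were collected from 4 control samples, 3 samples at 3 d and 3 at 14 d, and monocytes (CD11b+Ly6C hi) from 4, 4 and 4 samples. The labels call the controls untreated, whereas the study's methods describe 2 kinds, mutants with the recombinase given oil and mutants lacking it given tamoxifen, and the results for the sequenced monocytes name mutants given oil. Against controls given oil, any effect of tamoxifen cannot be told apart from that of the mutant protein. Surfactant protein C is made by alveolar type 2 cells, so neither sorted population is the cell in which the mutant protein is induced. Lavage cells and cells of digested lung were both stained, and the study does not say which gave the sequenced macrophages. The monocytes were sorted from digested lung after lavage and perfusion, and their gate left out Ly6G+ neutrophils. No such step is described for the macrophage gate, which asks for absence of CD11b, a protein that neutrophils carry.

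Neutrophils pack microbicidal proteins into granules that form in sequence while the cell matures in the bone marrow. Azurophil granules come first, secondary granules with lactoferrin and cathelicidin next, and gelatinase granules with MMP9 last, under factors such as C/EBPε and PU.1. In injured lung, neutrophils arrive from the blood along CXCR2 ligands, and S100A8, S100A9, MMP8 and MMP9 are also made by monocytes and some macrophages.

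Library totals ran from 4610720 to 17074863 counts in macrophages, with all 14 d macrophage libraries at or under 6838893, and from 15451460 to 28789639 in monocytes. The 3 d monocyte libraries stood apart: they had 15451460 to 20036958 counts, the lowest of the monocytes, yet held 40119 to 41134 detected genes against 24775 to 32492 in the other monocyte libraries. Their scaling factors by the trimmed mean of M-values (TMM) were 1.132 to 1.21 against 0.8496 to 1.026. Likewise the 14 d macrophage libraries held 27699 to 30627 detected genes against 21499 to 27616 in the others, with factors of 1.164 to 1.287 against 0.8964 to 0.9517. Comparisons of these 2 groups with the rest of their cell type carry that difference between libraries. On unscaled library totals, a gene with 3 counts stood at 0.176 to 0.651 counts-per-million (CPM) in macrophages and at 0.104 to 0.194 in monocytes. Levels other than such values for 3 counts are CPM on library sizes scaled by TMM, separately for each cell type. The 2 tables were processed apart, so a level in macrophages and a level in monocytes share no common scaling. The samples are bulk RNA, so fewer cells of a type and less RNA per cell cannot be told apart. The labels do not say that replicates are separate mice, and the p-values measure the spread between samples.

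Sex-linked transcripts separated the 14 d samples from all others. Xist counts were 2744 to 4444 in control macrophages, 1747 to 2597 at 3 d and 8 to 32 at 14 d, while 4 Y-linked genes together had 0 to 3, 2 to 3 and 433 to 966 counts. In monocytes Xist counts were 960 to 4260, 552 to 1217 and 1 to 6, and Y-linked counts 1 to 3, 0 to 2 and 1949 to 3033. Thus a difference between 14 d and the other groups cannot be told apart from a difference between male and female samples, in either cell type. No within-sex comparison is possible at 14 d.

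Transcripts of the antigens that the gates select for were present in each sorted population, which does not show how pure the populations were. Siglecf, the lectin of the macrophage gate, had mean levels of 303 CPM in control macrophages, 205 at 3 d and 112 at 14 d. It fell there at 14 d by 1.43 (adjusted p = 0.000654), and 7 of the 10 listed alveolar macrophage markers fell. Every monocyte library also held Siglecf at the level that the filter on low counts asks for. Ly6c2, the antigen of the monocyte gate, had means of 2833, 3025 and 1463 CPM in monocytes and of 2.21, 4.04 and 3.54 in macrophages. Itgam, which encodes CD11b, had means of 1.75, 11.4 and 76.0 CPM in macrophages, and it rose at 14 d by 5.45 ± 0.57 (log2 ± SE, adjusted p = 4.42e-05). The macrophage samples at 14 d therefore held the transcript of a protein that their gate selects against.

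In short, 9 of the 10 genes stood higher on average in 14 d macrophages than in control macrophages, and Mmp8 stood lower. For Mmp9, Retnlg and Cxcr2 every 14 d macrophage sample lay above every 14 d monocyte sample. For Mmp8 and Csf3r every 14 d macrophage sample lay under every 14 d monocyte sample, and the other 5 genes overlapped. The former was seen for 51.7% and the latter for 14.4% of all 26692 genes compared, so nothing is read from these counts.

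**Figure D1:**
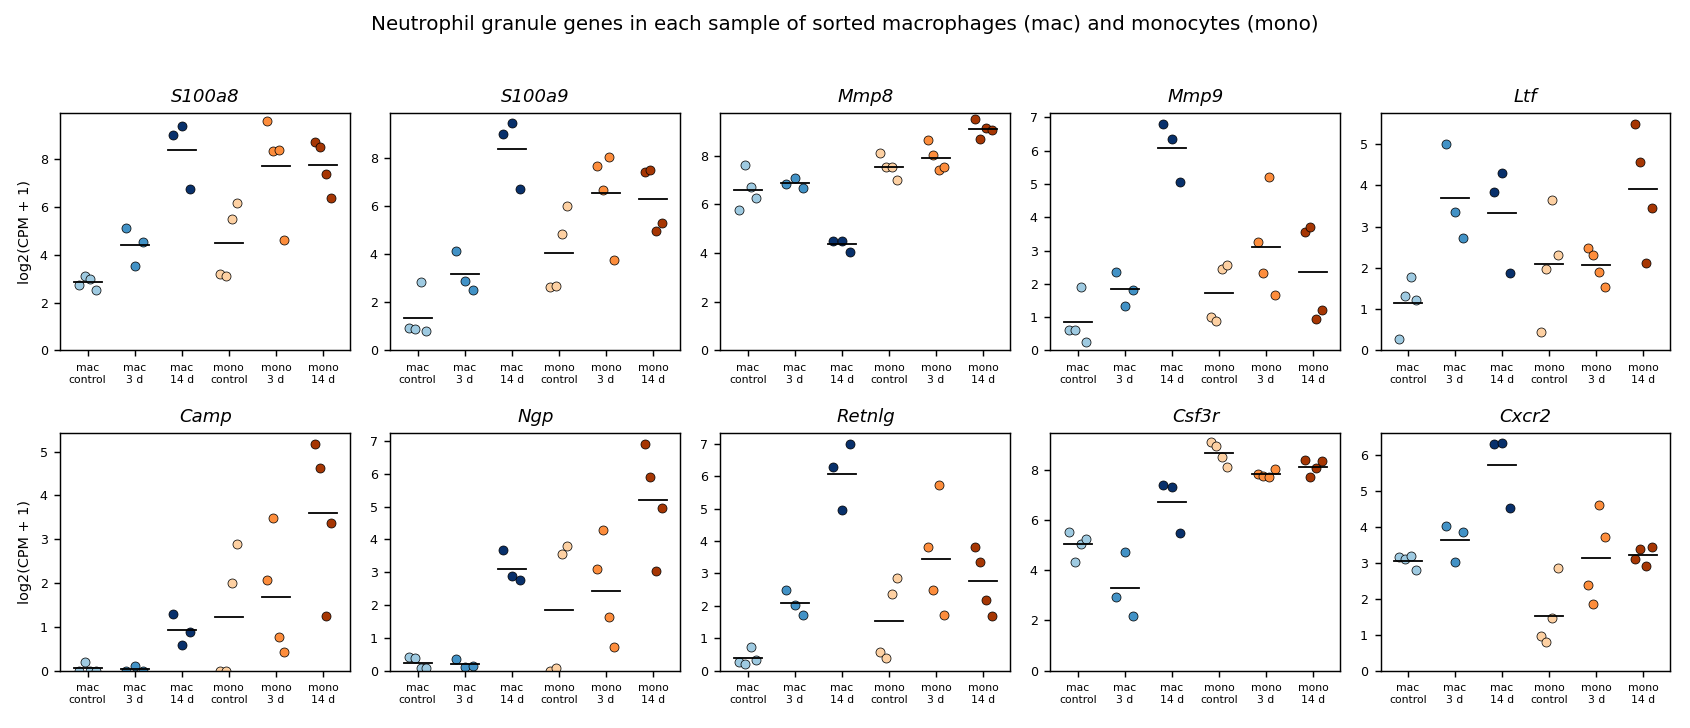
Levels of the 10 neutrophil genes in each sample, as log2 of (CPM + 1), for control, 3 d and 14 d macrophages and monocytes; each short line is a group mean. CPM are scaled within each cell type.

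S100a8 and S100a9 code for the subunits of calprotectin, the most abundant cytosolic protein complex of neutrophils. S100a8 (ENSMUSG00000056054, chr3:90668978-90670035, forward strand) and S100a9 (ENSMUSG00000056071, chr3:90692632-90695721, reverse strand) lie 22.6 kb apart with 0 protein-coding genes between them. In macrophages S100a8 stood at 5.67, 7.65, 6.99 and 4.83 CPM in the controls, 34.0, 10.4 and 22.3 at 3 d, and 513, 661 and 104.3 at 14 d. S100a9 stood at 0.887, 0.834, 6.27 and 0.728 CPM in control macrophages, 16.7, 6.50 and 4.68 at 3 d, and 521, 704 and 103.6 at 14 d. Every 14 d macrophage sample lay above every control and 3 d sample for both genes, and the third 14 d sample was the lowest of its group for each. The fitted differences from control at 14 d were 6.08 for S100a8 and 7.64 for S100a9 on the log2 scale. Without the third control macrophage library, which held the highest control level, the S100a9 difference was 9.07.

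In monocytes S100a8 stood at 8.002, 7.50, 43.3 and 70.8 CPM in the controls, 759, 319, 332 and 23.4 at 3 d, and 411, 356, 162 and 82.0 at 14 d. S100a9 stood at 5.20, 5.48, 27.7 and 64.2 CPM in control monocytes, 201, 102, 267 and 12.7 at 3 d, and 170, 180, 30.4 and 38.8 at 14 d. The fourth 3 d sample fell among the controls for both genes, and the 14 d samples lay above all controls for S100a8 but not for S100a9. S100a8 rose at 3 d by 3.46 ± 1.04 on the log2 scale (adjusted p = 0.017; 0.000618 to 0.103 over the alternatives). That call was lost with replicate number as a block (adjusted p = 0.103) and without the first control library (0.0513), and the value was 4.14 without the fourth control library and 2.77 without the first 3 d library. S100a9 at 3 d (2.50 ± 1.05, adjusted p = 0.0648; 0.0174 to 0.208), S100a8 at 14 d (2.96 ± 1.02, adjusted p = 0.109; 0.0149 to 0.308) and S100a9 at 14 d (2.03 ± 1.04, adjusted p = 0.287) did not pass. The call for S100a9 at 3 d was gained in DESeq2 (2.63, adjusted p = 0.0174), on library totals (2.90, adjusted p = 0.0482) and without the fourth control library (3.46, adjusted p = 0.0403) or the fourth 3 d library (2.83, adjusted p = 0.0365). That for S100a8 at 14 d was gained in DESeq2 (adjusted p = 0.0149), with genes of mean log2 CPM above 1 (0.0495) and with only the 2 groups compared in the fit (0.0345). Without the fourth control library the 14 d values were 3.68 for S100a8 and 3.02 for S100a9.

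The order of the group means for S100a8 was control macrophages (6.29 CPM), 3 d macrophages (22.2), control monocytes (32.4), 14 d monocytes (252.8), 3 d monocytes (358) and 14 d macrophages (426). Macrophages at 3 d overlapped control monocytes, and from 14 d monocytes upward each group overlapped its neighbour. Per kb of exon, the scale on which genes can be set beside each other, S100a9 led in 14 d macrophages at 848 CPM per kb against 614 for S100a8. In 14 d monocytes the order was the other way, 364 CPM per kb for S100a8 and 201 for S100a9. The S100a8 over S100a9 ratio per kb was 0.740, 0.706 and 0.757 in the 14 d macrophages and 1.82, 1.49, 4.02 and 1.59 in the 14 d monocytes, with no overlap. In control macrophages this ratio was 4.80, 6.91, 0.838 and 4.99, in control monocytes 1.16, 1.03, 1.18 and 0.830, and in 3 d monocytes 2.84, 2.36, 0.933 and 1.38. The ratio in 14 d macrophages was under that of every other sample measured.

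Mmp8 encodes neutrophil collagenase, a protease stored in secondary granules (ENSMUSG00000005800, chr9:7558456-7568485). In macrophages Mmp8 stood at 53.5, 195, 103.5 and 76.2 CPM in the controls, 113, 135 and 100.1 at 3 d, and 21.7, 21.9 and 15.7 at 14 d. In monocytes it stood at 274, 184.0, 186 and 127 CPM in the controls, 402, 261, 171 and 184 at 3 d, and 720, 415, 557 and 524 at 14 d. Thus all 14 d macrophage samples lay under all other macrophage samples, and all 14 d monocyte samples lay above all other monocyte samples. The fitted difference in 14 d macrophages was -2.43 on the log2 scale. In monocytes Mmp8 rose at 14 d by 1.52 ± 0.29 (adjusted p = 0.00329; 4.8e-05 to 0.0361 over the alternatives), and from 3 d to 14 d by 1.12 ± 0.28 (adjusted p = 0.00657; 0.00202 to 0.0745). The latter call was lost with genes of mean log2 CPM above 1 (0.82, adjusted p = 0.0745). At 3 d Mmp8 did not pass in macrophages (0.12 ± 0.36, adjusted p = 0.923) or monocytes (0.40 ± 0.28, adjusted p = 0.239), and was called in the latter on library totals (0.83, adjusted p = 0.0229).

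Mmp9 encodes gelatinase B, the marker enzyme of gelatinase granules (ENSMUSG00000017737, chr2:164940780-164955850). In macrophages Mmp9 stood at 0.546, 0.531, 2.74 and 0.199 CPM in the controls, 4.07, 1.55 and 2.50 at 3 d, and 111, 80.3 and 32.4 at 14 d. In monocytes it stood at 0.990, 0.851, 4.44 and 4.96 CPM in the controls, 8.55, 4.02, 35.9 and 2.17 at 3 d, and 10.7, 12.04, 0.927 and 1.30 at 14 d. The 14 d macrophages stood above every other sample of their cell type, whereas the monocyte groups overlapped at each time. The fitted difference in 14 d macrophages was 6.18, and 7.44 without the third control macrophage library. In monocytes neither 3 d (2.16 ± 1.05, adjusted p = 0.102) nor 14 d (1.14 ± 1.03, adjusted p = 0.57) passed, and the 3 d value was 0.80 without 3 d library 3.

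The order of collagenase and gelatinase in macrophages was reversed at 14 d. Per kb the Mmp9 over Mmp8 ratio was 3.52, 2.52 and 1.42 in the 14 d macrophages and at most 0.0182 in control and 0.0246 in 3 d macrophages. In monocytes it was at most 0.144 in any sample. Mean levels of Mmp8 in macrophages were 44.1, 47.9 and 8.14 CPM per kb in control, 3 d and 14 d samples, and those of Mmp9 0.284, 0.764 and 21.1.

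Ltf encodes lactoferrin, the iron-binding protein of secondary granules (ENSMUSG00000032496, chr9:111019271-111042767). In macrophages Ltf stood at 0.205, 1.52, 2.42 and 1.32 CPM in the controls, 31.2, 9.21 and 5.62 at 3 d, and 13.2, 18.7 and 2.696 at 14 d. In monocytes it stood at 0.371, 2.93, 11.6 and 3.94 CPM in the controls, 4.58, 3.98, 2.73 and 1.93 at 3 d, and 44.2, 22.8, 3.35 and 10.01 at 14 d. At 3 d Mmp8, Camp, Ngp and Csf3r had every macrophage sample under every monocyte sample, beside 36.0% of genes compared. Ltf was the one member with every 3 d macrophage sample above every 3 d monocyte sample, as were 30.3% of genes compared, with means of 15.3 and 3.30 CPM. The 3 d difference from control in macrophages, 3.49 ± 0.86, did not pass (adjusted p = 0.105; 0.0057 to 0.572 over the alternatives), and was called by DESeq2 (adjusted p = 0.0057) and with genes of mean log2 CPM above 1 (0.0431). It was 2.44 without the first 3 d library, which held the highest level. In monocytes Ltf rose from 3 d to 14 d by 2.60 ± 0.88 (adjusted p = 0.0291; 0.0106 to 0.0899). That call was lost without 3 d library 3 (adjusted p = 0.073) or 4 (0.0681), without the first 14 d library (2.01, adjusted p = 0.0693), with replicate number as a block (0.0651), with no filter on low counts (0.0512) and with genes of mean log2 CPM above 1 (0.0899).

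Camp, which encodes the cathelicidin precursor (ENSMUSG00000038357, chr9:109847379-109849617), and Ngp, which encodes neutrophilic granule protein (ENSMUSG00000032484, chr9:110419747-110423012), lie with Ltf on chromosome 9. Camp and Ngp are 570.1 kb apart with 8 protein-coding genes between them, and Ngp and Ltf 596.3 kb with 20. Both are secondary granule genes of immature neutrophils. In macrophages Camp had 0, 2, 0 and 0 counts in the controls, 0, 1 and 0 at 3 d, and 10, 4 and 5 at 14 d, and it was below the filter on low counts there. Ngp had 5, 4, 1 and 1 counts in control macrophages, 4, 1 and 1 at 3 d, and 83, 51 and 34 at 14 d. So each 14 d macrophage sample held more counts of both genes than any earlier one, although the 14 d libraries were the smallest. The fitted Ngp difference in 14 d macrophages was 5.32 on the log2 scale. Ngp passed the filter only through its 14 d counts, and at 3 d its counts lay within those of the controls.

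In monocytes the counts of these genes were larger and more uneven. Camp had 0, 0, 77 and 159 counts in the controls, 78, 216, 13 and 7 at 3 d, and 758, 515, 27 and 228 at 14 d. Ngp had 0, 1, 276 and 320 counts in the controls, 182, 389, 39 and 13 at 3 d, and 2566, 1279, 140 and 744 at 14 d. Control libraries 1 and 2 were at or near 0 and libraries 3 and 4 were not, and the groups overlapped for both genes at both times. Neither passed at 3 d (Camp 0.61 ± 1.42, adjusted p = 0.739; Ngp 0.26 ± 1.38, adjusted p = 0.888) or 14 d (Camp 2.86 ± 1.47, adjusted p = 0.292; Ngp 3.16 ± 1.47, adjusted p = 0.239). Without the second 3 d library the 3 d values were -0.74 for Camp and -0.81 for Ngp, and without the fourth control library 1.77 and 0.93. The 14 d values were 4.06 and 3.87 without the fourth control library, and that of Ngp was 2.46 without the first 14 d library. Ltf did not pass against control at 3 d (-0.51 ± 0.85, adjusted p = 0.634; 0.37 on the log2 scale without the third control library) or at 14 d (2.09 ± 0.86, adjusted p = 0.175), where the value was 1.38 without the first 14 d library and 3.09 without the third control library.

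Like Mmp8 and Csf3r, the genes Ngp, Camp and Ltf had lower 14 d means in macrophages than in monocytes, but their samples overlapped. Mean Ngp was 8.02 CPM in 14 d macrophages and 53.7 in 14 d monocytes, mean Camp 0.927 and 17.3, and mean Ltf 11.5 and 20.1, the latter with 1 library at 44.2. Per kb, Ngp reached 6.56 CPM in 14 d macrophages against 848 for S100a9. In 14 d monocytes Ngp reached 43.9 CPM per kb against 201 for S100a9.

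Retnlg encodes a resistin-like protein secreted by mature neutrophils (ENSMUSG00000022651, chr16:48872621-48874496). In macrophages Retnlg stood at 0.205, 0.152, 0.653 and 0.265 CPM in the controls, 4.64, 3.09 and 2.29 at 3 d, and 78.0, 30.0 and 127 at 14 d. In monocytes it stood at 0.495, 0.319, 4.12 and 6.21 CPM in the controls, 13.2, 4.59, 52.3 and 2.32 at 3 d, and 13.1, 9.18, 3.50 and 2.24 at 14 d. All macrophage groups were apart from each other, and the monocyte groups overlapped. Unlike the other 9 genes, Retnlg was highest in the third 14 d macrophage sample. The Retnlg over S100a8 ratio per kb was 0.178, 0.0532 and 1.43 in these samples and at most 0.184 in any monocyte sample.

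Retnlg was the single member called in macrophages at 3 d, higher by 3.34 ± 0.68 on the log2 scale (adjusted p = 0.0456; 0.000151 to 0.237 over the alternatives). It had 3, 2, 10 and 4 counts in the controls and reached the filter on low counts only through the 3 d and 14 d samples. Its call therefore supports nothing. The call was lost on library totals (adjusted p = 0.0616), with no filter on low counts (0.12) and in 8 of 10 removals of 1 library: without control libraries 1 to 4 (adjusted p = 0.119, 0.1, 0.0595 and 0.179, with 3.95 without the third), 3 d libraries 1 to 3 (0.237, 0.0787 and 0.214) or the first 14 d library (0.0739). The fitted difference at 14 d was 7.86, with 8.48 without the third control library and 7.27 without the third 14 d library. In monocytes Retnlg did not pass at 3 d (2.68 ± 1.11, adjusted p = 0.0596; 0.019 to 0.3) or 14 d (1.32 ± 1.07, adjusted p = 0.526). The 3 d call was gained in DESeq2 (adjusted p = 0.019), on library totals (0.0445) and without 3 d library 2 (0.0454) or 4 (0.0408). The 3 d value was 1.25 without 3 d library 3 and 3.37 without the fourth control library, and the 14 d value was 2.05 without the latter.

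Csf3r encodes the receptor for G-CSF, which drives neutrophil production and is carried by monocytes too (ENSMUSG00000028859, chr4:126024550-126044440). In macrophages Csf3r stood at 45.4, 18.8, 32.1 and 37.3 CPM in the controls, 6.64, 25.7 and 3.54 at 3 d, and 169, 159 and 43.1 at 14 d. In monocytes it stood at 555, 495, 360 and 273 CPM in the controls, 225, 216, 207 and 261 at 3 d, and 337, 207, 266 and 324 at 14 d. At every time all macrophage samples lay under all monocyte samples, as did 13.9%, 36.0% and 14.4% of genes compared in control, at 3 d and at 14 d, and the third 14 d macrophage sample lay among the controls. Csf3r fell in monocytes at 3 d by 0.89 on the log2 scale (SE 0.21, adjusted p = 0.00415; 4.3e-05 to 0.112 over the alternatives). The call was lost on library totals (-0.46, adjusted p = 0.0692) and with genes of mean log2 CPM above 1 (-0.56, adjusted p = 0.112). Csf3r did not pass in monocytes at 14 d (-0.57 ± 0.21, adjusted p = 0.122; 0.00726 to 0.321, the lowest without control libraries 3 and 4), and was called there without the fourth control library (-0.72, adjusted p = 0.0299). In macrophages the 3 d difference, -1.47 ± 0.75, did not pass (adjusted p = 0.439) and was -2.64 without the second 3 d library, and the fitted 14 d difference was 1.89.

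Cxcr2 encodes the chemokine receptor that brings neutrophils to tissue (ENSMUSG00000026180, chr1:74153989-74161246). In macrophages Cxcr2 stood at 7.92, 7.65, 8.10 and 6.02 CPM in the controls, 15.4, 7.12 and 13.6 at 3 d, and 78.1, 80.1 and 22.2 at 14 d. In monocytes it stood at 0.949, 0.744, 1.75 and 6.21 CPM in the controls, 4.21, 2.60, 23.5 and 12.2 at 3 d, and 7.70, 9.55, 6.59 and 9.81 at 14 d. It was the single member with a higher mean in macrophages than in monocytes in all 3 groups (7.42 against 2.41 CPM in controls), although samples overlapped in the controls and at 3 d. In controls every macrophage sample lay above every monocyte sample for 0 of the 10 members, beside 30.4% of genes compared. Cxcr2 rose in monocytes at 3 d by 2.13 ± 0.72 (adjusted p = 0.0241; 0.00173 to 0.105 over the alternatives). That call was lost without control library 1 (adjusted p = 0.0738), 2 (0.072) or 3 (0.074), without 3 d library 3 (1.38, adjusted p = 0.105) or 4 (0.0503), with no filter on low counts (0.087) and with only the 2 groups compared in the fit (0.0544). Without the fourth control library the value was 3.14. At 14 d Cxcr2 did not pass in monocytes (1.79 ± 0.71, adjusted p = 0.155; 0.0207 to 0.376), and was called without the fourth control library (2.86, adjusted p = 0.0207), in DESeq2 (1.85, adjusted p = 0.0405) and with replicate number as a block (2.35, adjusted p = 0.0442). The fitted difference in 14 d macrophages was 3.02, and the 3 d difference did not pass (0.69 ± 0.41, adjusted p = 0.483).

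**Figure D2:**
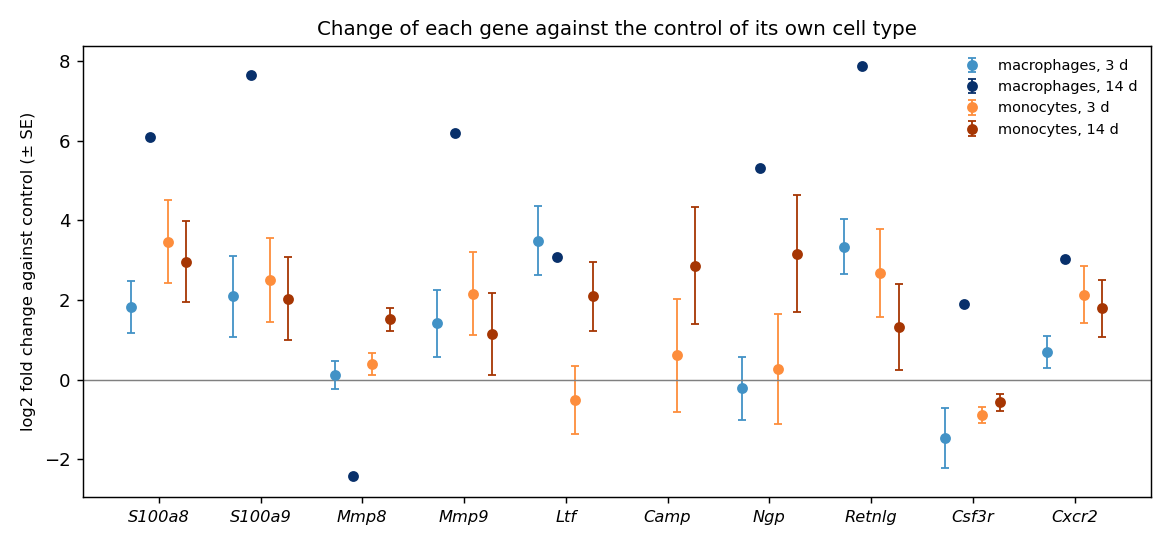
Fitted log2 fold changes of the 10 genes from the control of the same cell type, with ± SE bars where a test applies. Values for 14 d macrophages have no bars because the genes were chosen on them, and Camp has no macrophage points because it was below the filter on low counts.

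Across the 10 genes, calls required an adjusted p under 0.05 and a fold above 1.5. In macrophages at 3 d 1 of 9 members tested was called, beside 1.27% of all 20944 genes tested. It was Retnlg, which reached the filter only through the 3 d and 14 d samples, so the call supports nothing. Ngp, which passed the filter only through its 14 d counts, is 1 of the 9, with 1 to 5 counts in each control and 3 d library. The number of genes called there, 267, was 96, 146, 102, 77 and 111 without control libraries 1, 3 and 4 and 3 d libraries 1 and 3, and 1478 without the second 3 d library. S100a8 (1.83 ± 0.65, adjusted p = 0.259; 0.0485 to 0.704 over the alternatives), S100a9 (2.09 ± 1.02, adjusted p = 0.424) and Mmp9 (1.41 ± 0.83, adjusted p = 0.498) did not pass. Without the third control library S100a9 had 3.52 and Mmp9 2.67, and without the first 3 d library S100a9 had 1.35. S100a8 was called with only the 2 groups compared in the fit (1.86, adjusted p = 0.0485). Every 3 d sample stood above every control for 3 of the 10 members (S100a8, Ltf and Retnlg), beside 6.86% of genes tested, and under every control for 0, beside 7.16%.

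In macrophages at 14 d all 9 members that passed the filter lay past the same threshold, 8 higher and Mmp8 lower, beside 62.3% of genes tested, and every 14 d sample stood above every control for 8 of 10, beside 40.2%, and under every control for 1 (Mmp8), beside 30.6%. Against 3 d macrophages 8 of 9 lay past it, beside 56.4%. Because these levels chose the members, nothing is read from these counts. The fitted differences of 14 d from 3 d were 4.26 for S100a8, 5.55 for S100a9, -2.55 for Mmp8, 4.77 for Mmp9, -0.40 for Ltf, 5.54 for Ngp, 4.52 for Retnlg, 3.35 for Csf3r and 2.33 for Cxcr2. Without the first 3 d library those of Ltf, S100a9 and Ngp were 0.49, 6.14 and 6.18, without the second that of Csf3r was 4.34, and without the third 14 d library that of Retnlg was 3.93.

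In monocytes at 3 d 3 of 10 members were called (S100a8 and Cxcr2 higher, Csf3r lower), beside 49.4% of all 22353 genes tested. With genes of mean log2 CPM above 1, an alternative chosen after seeing the data, it was 2 of 10 members beside 13.1% of 11060 genes, so the share of all genes depends on which of them are tested. The members' count says nothing particular about them. Without the first control library 1 of 10 was called. Every 3 d sample stood above every control for 0 of 10 members, beside 37.4% of genes tested, and under every control for 1 (Csf3r), beside 12.4%. At 14 d 1 of 10 was called (Mmp8), beside 8.42%, and 3 without the fourth control library. All 14 d monocytes stood above all controls for 3 of 10 (S100a8, Mmp8 and Cxcr2), beside 5.74%, and under all controls for 0, beside 7.73%. From 3 d to 14 d 2 of 10 were called (Mmp8 and Ltf), beside 45.2%, and 1 without 3 d library 3 or 4 or 14 d library 1. The genes called at 14 d numbered 1883, and 1157 without the third 14 d library. The comparisons within a cell type share their control samples.

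The change in macrophages was also set against the change in monocytes in 1 fit of all 22 samples. The labels do not say whether a macrophage and a monocyte sample came from the same mouse, and the fit treats all as independent. At 3 d 0 of 10 members passed this test of the difference in edgeR, beside 18.7% of 26692 genes tested, with 1 member at an unadjusted p under 0.05, and DESeq2 called 1. The 10 include Camp (SE 5.07) and Ngp (SE 3.2), which had at most 5 counts in any control or 3 d macrophage library, so their results here say little. Ltf came nearest, at 3.88 ± 1.36 (adjusted p = 0.0545; 0.0163 to 0.204). The value was 2.91 without the first 3 d macrophage library or the third control monocyte library, and Ltf was called without the third control macrophage library (adjusted p = 0.0493) or the first control monocyte library (0.0281), or 14 d monocyte library 1 (0.0468) or 3 (0.0428). Cxcr2 was called without the fourth control monocyte library (-2.61, adjusted p = 0.0492). The genes called numbered 4995, and 3136, 3034, 2476 and 2273 without control macrophage libraries 1 and 2 and 3 d macrophage libraries 1 and 3.

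At 14 d the differences between the change in macrophages and the change in monocytes are a description. They were 6.22 for Retnlg, 5.22 for S100a9, 4.66 for Mmp9, 2.75 for S100a8, 2.08 for Csf3r, 1.83 for Ngp, 0.87 for Cxcr2, 0.61 for Ltf and -4.31 for Mmp8. Camp is left out of this order, because it was below the filter in macrophages and its fitted difference rests on 2 counts in 1 control library. Positive values mean a larger increase, or smaller decrease, in macrophages. Of the 10, 5 lay past the threshold, beside 36.8% of genes tested, 3 did without the first 14 d macrophage library and 1 with replicate number as a block, and nothing is read from these counts because the macrophage levels chose the members. Without the third control macrophage library S100a9 had 6.68, Mmp9 5.95 and Retnlg 6.86, and without the fourth control monocyte library Retnlg had 5.48, S100a9 4.21, S100a8 2.02, Ngp 1.12 and Cxcr2 -0.20. Ltf had -0.36 without the third control monocyte library, and without the first 14 d monocyte library Ltf had 1.34 and Ngp 2.56.

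On levels, the mean in 14 d macrophages over that in 14 d monocytes was 11.96 for Mmp9, 11.2 for Retnlg, 7.15 for Cxcr2, 4.23 for S100a9 and 1.69 for S100a8. It was 0.574 for Ltf, 0.435 for Csf3r, 0.149 for Ngp, 0.0535 for Camp and 0.0356 for Mmp8. In controls the ratio was under 1 for every gene but Cxcr2, with 0.0794 for Csf3r. The summed level of the 10 genes was 1518, 1761 and 458 CPM in 14 d macrophages and 1866, 1295, 1039 and 1032 in 14 d monocytes. In CPM, S100a9 made up the largest part of this sum in 14 d macrophages (35.6%) and Mmp8 in 14 d monocytes (42.4%). Per kb of exon S100a9 also led in 14 d macrophages, but S100a8 led in 14 d monocytes, at 364 CPM per kb against 228 for Mmp8.

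Single samples stood out across the genes. The third 14 d macrophage sample was lowest of its group for 8 of the 10 genes and highest for 1. The first 3 d macrophage sample was highest for 7, the fourth 3 d monocyte sample lowest for 7, the first 14 d monocyte sample highest for 7 and the fourth control monocyte sample highest for 7.

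Other neutrophil genes were taken from lists of 17 granule proteins, 13 receptors and surface proteins and 13 transcripts of mature neutrophils. Beside the counts of these and later lists stand the shares of all genes called, 1.27% and 62.3% in macrophages and 49.4% and 8.42% in monocytes at 3 d and 14 d, and 18.7% and 36.8% for the difference between cell types. With genes of mean log2 CPM above 1 these shares were 2.1%, 38.5%, 13.1%, 15.8%, 10.2% and 31.8%. A gene that reaches the filter on low counts only through a group where it is high had to differ, so such genes are named with each list and their calls support nothing. The median of a list includes them, so nothing is read from the median of a list that holds such genes. Where a list's share is near the one of all genes, nothing particular is read from its single genes. Of the granule proteins 14 were tested in macrophages and 3 were called at 3 d, all higher (median log2 fold change 1.00 against -0.01 over all genes tested): Chil1 (1.92, adjusted p = 0.0131), Mmp25 (1.6, adjusted p = 0.0247) and the peptidoglycan-binding Pglyrp1 (2.05, adjusted p = 0.011). At 14 d 10 rose and 3 fell (median 3.37 against 0.18), beside 62.3% of all genes called. Cd177, a neutrophil surface antigen stored in secondary granules, rose by 7.47, the azurophil protease Prtn3 by 5.72, Pglyrp1 by 4.99, Olfm4 by 4.92, haptoglobin (Hp) by 3.77 and lipocalin 2 (Lcn2) by 3.31. Of the 10, Prtn3, Prss57, Olfm4 and Itgb2l reached the filter only through the 14 d samples. Cd177 was under 1 CPM in every control and reached the filter only through the 3 d and 14 d samples, so its call supports nothing. Slpi fell by 2.23, Wfdc21 by 0.90 and Anxa1 by 0.78. The summed level of the list was 883, 991 and 608 CPM at 14 d, 1668, 1132 and 1834 at 3 d and 924 to 1320 in controls, where Anxa1 made up 51.1% of it. So 14 d samples lay under all 3 d samples and overlapped the controls.

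In monocytes 11 of 17 granule protein genes rose and 1 fell at 3 d (median 1.64 against 0.28), beside 49.4% of all genes called, and 5 rose and 1 fell at 14 d (0.80 against 0.07), beside 8.42%. The azurophil protease Elane rose by 6.35 at 3 d and 4.49 at 14 d, Mpo by 3.44 at 3 d, and Lcn2 by 3.04 (adjusted p = 0.00855) and 3.05 (adjusted p = 0.0357). Of the genes called at 3 d, Prss57, Ms4a3, Olfm4 and Itgb2l reached the filter only through 1 injured group, as did Ms4a3 of those at 14 d. Elane and Mpo were under 1 CPM in every control. Elane reached the filter only through the injured groups, so its calls support nothing. Pglyrp1 fell by 0.83 and 2.03. Hp was the most abundant gene of the list in every monocyte group, at a mean of 2041 CPM in 14 d monocytes against 114 in 14 d macrophages. For the change in macrophages against that in monocytes 2 of 17 were higher and 1 lower at 3 d, and 5 higher and 2 lower at 14 d, near the 18.7% and 36.8% of all genes called.

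Of 12 receptor and surface genes tested in macrophages 0 were called at 3 d in edgeR, with 3 at an unadjusted p under 0.05 and 2 called by DESeq2, and 4 rose and 4 fell at 14 d, which is near the 62.3% of all genes called there. The decoy interleukin 1 receptor Il1r2 rose by 6.49 and the leukotriene B4 receptor Ltb4r1 by 3.54, while the formyl peptide receptors Fpr1 and Fpr2 fell by 2.25 and 2.85, Cxcr1 by 2.53 and Cd300lf by 0.60. In monocytes 2 of 13 rose and 3 fell at 3 d (beside 49.4%), and 5 rose and 1 fell at 14 d (beside 8.42%). Ly6g, the antigen used to gate out neutrophils, had 1.29, 0.251 and 0 CPM in 14 d macrophages and 0.0683, 0.152, 0 and 0 in control macrophages, below the filter on low counts. In monocytes Ly6g had 0.826, 0.237, 2.25 and 0.346 CPM at 3 d and 1.34, 0.923, 0.103 and 0.122 at 14 d, and it reached the filter only through these 2 groups.

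Of 8 mature neutrophil transcripts tested in macrophages 3 rose at 3 d (median 1.54), namely Hdc (3.60, adjusted p = 2.05e-05), Mmp25, which stands in 2 lists, and the stefin Stfa2l1. Stfa2l1 had at most 0.643 CPM at 3 d and reached the filter only through the 14 d samples, as did Asprv1 and Gm5483. Hdc encodes histidine decarboxylase and is also a gene of mast cells and basophils, whose markers were higher in the same samples: 4 of 6 rose (median 3.88), namely Cpa3 by 3.65, Ms4a2 by 4.68, and Mcpt8 and Fcer1a, which reached the filter only through the 3 d samples. These markers summed to 8.05, 2.27, 1.83 and 1.59 CPM in controls, 64.9, 24.1 and 62.5 at 3 d and 8.90, 20.9 and 4.38 at 14 d, and their part in the result was not tested. Sums of epithelial, dendritic cell, endothelial, eosinophil, platelet and NK cell markers were also higher in every 3 d sample than in any control. Their lowest 3 d sums were 460.5, 75.0, 21.0, 17.33, 10.06 and 10.43 CPM. The highest control sums were 216, 34.8, 18.1, 12.08, 8.493 and 10.39. In edgeR 1 of 7 epithelial genes rose and 1 fell, 0 of 6 dendritic cell genes were called (2 by DESeq2) and 1 of 5 endothelial genes rose. There 0 of 6 eosinophil genes (2 by DESeq2) and 0 of 5 NK cell genes (0 by DESeq2) were called, and 1 of 2 platelet genes rose. Their part was not tested either. At 14 d 7 of the 8 mature neutrophil transcripts rose (median 4.50), beside 62.3% of all genes called, among them Stfa2l1 by 7.57, Asprv1 by 6.49, Padi4 by 5.67, Gm5483 by 5.19, Hdc by 3.81 and Mxd1 by 1.25. Padi4 was under 1 CPM in every control and reached the filter only through the 3 d and 14 d samples, so its call supports nothing. The list summed to 65.6, 51.8, 59.1 and 78.8 CPM in control macrophages, 88.9, 92.3 and 73.1 at 3 d and 296, 241 and 164 at 14 d, with Mxd1 the most abundant in each group. Every 14 d macrophage sample stood above all earlier ones. In monocytes the same list summed to 165 to 218 CPM in controls and 87.0 to 119 at 14 d, so 14 d monocytes lay under all controls. There 3 rose and 1 fell at 3 d and 1 rose and 2 fell at 14 d, among them Stfa1 at both times and Stfa2l1 at 3 d, which reached the filter only through injured groups. The difference between the change in macrophages and that in monocytes at 14 d was called for 7 of 10, all higher in macrophages, beside 36.8% of all genes. The 7 include Stfa2l1, Asprv1 and Gm5483, which reached the macrophage filter only through the 14 d samples, so their calls support nothing.

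**Figure D3:**
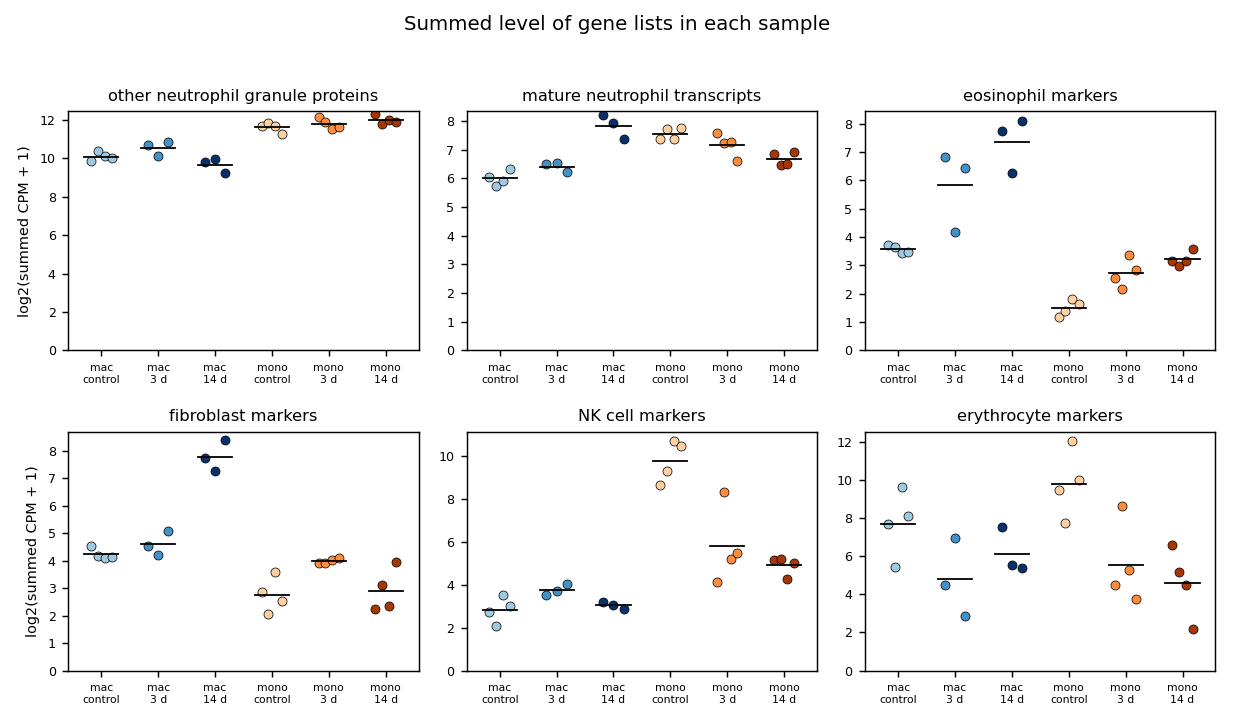
Summed levels per sample, as log2 of (CPM + 1), for other neutrophil granule proteins, mature neutrophil transcripts and markers of eosinophils, fibroblasts, NK cells and erythrocytes.

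Of 8 transcription factors of granulocyte development 0 were called in macrophages at 3 d in edgeR, with 4 at an unadjusted p under 0.05 and 3 called by DESeq2. At 14 d 3 rose and 5 fell, where 62.3% of all genes were called. Cebpe, the factor required for secondary granules, stood at 26.7, 10.6 and 29.8 CPM at 14 d and at most 0.205 in controls, and Myb rose by 2.72. Cebpe and Gfi1 reached the filter only through the 14 d samples. Cebpa fell by 1.97, Runx1 by 1.51, Cebpb by 1.24, Spi1 by 1.00 and Cebpd by 0.80. In monocytes mean Cebpe was 1.04, 2.14 and 1.27 CPM in control, 3 d and 14 d samples, and 2 of 8 factors rose at 3 d and 0 were called at 14 d in edgeR, with 1 at an unadjusted p under 0.05 and 0 called by DESeq2.

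Of the ligands of CXCR2 and of the G-CSF receptor 5 were tested in macrophages, and 0 were called at 3 d or 14 d in edgeR, with 1 and 0 at an unadjusted p under 0.05 and 0 called by DESeq2. Cxcl2 was the most abundant, at means of 188.5, 249 and 226 CPM. In monocytes 1 of 7 rose at 3 d and 3 at 14 d (median 2.37), namely Cxcl3 by 5.90, Pf4 by 3.48 and Cxcl2 by 2.50. Pf4 stands in the list but is not known as a ligand of CXCR2, so 2 of these 3 are. Csf3 itself was absent from the macrophage table and had a mean of 0.296 CPM in 14 d monocytes.

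Other S100 genes and the calprotectin receptors Tlr4 and Ager moved both ways in macrophages. Of 13 1 rose at 3 d (S100a4, 2.25, adjusted p = 0.025), and 8 rose and 5 fell at 14 d, beside 62.3% of all genes called, where their summed level was 1122, 1177 and 935 CPM against 1458 to 1784 in controls. Of those that rose S100a3, S100a5, S100a14 and S100b reached the filter only through the 14 d samples. In monocytes 1 of 11 rose (S100a3) and 1 fell (Ager) at 3 d and 3 rose at 14 d. There S100a3 reached the filter only through the 3 d samples, so its call supports nothing. Of the 4 TIMP genes, which encode inhibitors of MMP8 and MMP9, 3 rose in 14 d macrophages, near the 62.3% of all genes, and 0 were called at 3 d in edgeR, with 1 at an unadjusted p under 0.05 and 0 called by DESeq2. In monocytes Timp1 rose by 4.27 at 3 d and 7.34 at 14 d, Timp2 by 1.95 at 14 d and Timp4 at 3 d. Timp4 reached the filter only through the 3 d samples in monocytes and the 14 d samples in macrophages.

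The genes whose profile was nearest to the mean of the 10 standardized members were found separately in each cell type. In macrophages (10 samples, 9635 genes with a mean log2 CPM above 3) they were Hp (Pearson r = 0.989), Ninj1 (0.974), Lpcat2 (0.972), Pstpip1 (0.971), Igf1r (0.964), Syt11 (0.958), Cemip2 (0.949), Slc25a35 (0.948), Armc9 (0.947) and Sema4d (0.945). Mean Hp was 8.34, 17.6 and 114 CPM in control, 3 d and 14 d macrophages. In monocytes (12 samples, 8071 genes) they were Ifitm1 (0.904), Erlec1 (0.855), Mtch1 (0.849), Lrg1 (0.847), F11r (0.835), Lcn2 (0.828), Mgst3 (0.825), Gpr146 (0.811), Dmxl2 (0.811) and Acot7 (0.807). Mean Lrg1 was 4.95, 64.3 and 159 CPM in control, 3 d and 14 d monocytes. The lists shared 0 genes, and each correlation spans groups that differ in many other genes.

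Markers of other cells also differed from control in 14 d macrophages, beside 62.3% of all genes called. Eosinophil markers rose for 5 of 6 genes (median 5.81) and summed to 12.1, 11.6, 9.80 and 10.1 CPM in control macrophages, 114, 17.3 and 85.6 at 3 d and 216, 75.9 and 272 at 14 d. Of the 5, Prg2, Epx and Ccr3 reached the filter only through the 14 d samples. Alox15 was the most abundant (87.3, 27.8 and 135 CPM), and the defining granule genes Prg2 and Epx had 77.1, 18.5 and 82.6 and 2.30, 1.38 and 1.69 CPM. Fibroblast markers rose for 5 of 5 (median 3.23) and summed to 209, 151 and 330 CPM against 16.1 to 22.1 in controls, with Col3a1 the most abundant (167, 102 and 277). The eosinophil and fibroblast sums were highest in the third 14 d sample, where the summed level of the members was lowest (1518, 1761 and 458 CPM). Classical monocyte markers rose for 4 of 8, mast cell and basophil markers for 3 of 6, dendritic cell markers for 3 of 6 and endothelial markers for 4 of 5. Among the genes that rose, Cd209a (dendritic cell) reached the filter only through the 14 d samples and Mcpt8 (basophil) only through the 3 d samples. Alveolar macrophage markers fell for 7 of 10 (median -1.32). None of these lists had a defining gene at 0 in the 14 d macrophages, and their part in the result was not tested. Of the 8 neutrophil markers 6 are members, and the other 2 are Ly6g and Stfa2l1. Their sum was 1389, 1662 and 418 CPM in 14 d macrophages, with S100a9 the largest part, and 1660, 1179, 1026 and 981 in 14 d monocytes, with Mmp8 the largest part. Per kb of exon S100a8 stood above Mmp8 in 14 d monocytes, at 364 against 228 CPM per kb.

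In monocytes the control samples 3 and 4, which were high for Camp, Ngp, S100a8 and S100a9, were also high for NK cell and, in the third, erythrocyte markers. NK cell markers summed to 402, 613, 1647 and 1392 CPM in the controls, 16.3, 320, 35.7 and 43.9 at 3 d and 18.0 to 35.2 at 14 d, led by Gzma, and fell for 5 of 6 genes at 3 d and 6 of 6 at 14 d. Erythrocyte markers summed to 715, 210.2, 4195 and 1018 CPM in the controls, led by Hbb-bs, and 4 of 5 fell at 3 d and 3 of 5 at 14 d. Leaving out both libraries, an alternative chosen after seeing the data, uses the members' own levels, so no call is read from it. The part of these markers in the result was not tested.

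Promoters were read from RefSeq (GRCm38.p6) for the members, most of which stood higher together in 14 d macrophages, and 9 of 10 matched, with no entry for Mmp9. Each window runs from 250 bases before to 50 bases after the gene's start in RefSeq, which differs from the GENCODE M21 position given above for all of these 9 but S100a9. The motifs searched, on both strands and with 0 overlaps between matches, were a C/EBP-type TTGCNNAA, which reads TTNNGCAA on the other strand, a PU.1-type GAGGAA, which reads TTCCTC there, an AP-1-type TGANTCA, the same on both strands, and a TATA-type TATAAA, which reads TTTATA there. The C/EBP-type letters were in 5 of 9 member windows (S100a9, Mmp8, Ltf, Ngp and Retnlg) and in 10.8% of all 32851 promoter windows. The PU.1-type letters were in 5 of 9 (S100a8, Mmp8, Ltf, Csf3r and Cxcr2) and 28.3% of all, the TATA-type letters in 3 of 9 (S100a8, S100a9 and Mmp8) and 13.6%, and the AP-1-type letters in 0 of 9 and 7.81%. Camp held none of these letters, which says only that they are not in this window. A match is a description and not a binding site.

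The windows of the calprotectin pair and of Mmp8, which differed in direction at 14 d in macrophages, are chr3:90668821-90669120 (forward strand), chr3:90695672-90695971 (reverse strand) and chr9:7558179-7558478 (forward strand), with the matches in capitals.
S100a8: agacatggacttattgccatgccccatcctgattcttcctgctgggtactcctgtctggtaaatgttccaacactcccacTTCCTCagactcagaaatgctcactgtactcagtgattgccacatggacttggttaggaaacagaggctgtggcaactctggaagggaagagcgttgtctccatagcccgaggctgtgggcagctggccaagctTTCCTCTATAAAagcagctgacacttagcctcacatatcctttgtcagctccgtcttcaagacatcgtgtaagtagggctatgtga
S100a9: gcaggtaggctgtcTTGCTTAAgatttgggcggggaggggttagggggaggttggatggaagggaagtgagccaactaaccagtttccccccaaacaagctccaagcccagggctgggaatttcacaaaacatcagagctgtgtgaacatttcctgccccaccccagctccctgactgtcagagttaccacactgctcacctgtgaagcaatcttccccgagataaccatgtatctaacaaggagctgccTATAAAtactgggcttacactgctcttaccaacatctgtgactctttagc
Mmp8: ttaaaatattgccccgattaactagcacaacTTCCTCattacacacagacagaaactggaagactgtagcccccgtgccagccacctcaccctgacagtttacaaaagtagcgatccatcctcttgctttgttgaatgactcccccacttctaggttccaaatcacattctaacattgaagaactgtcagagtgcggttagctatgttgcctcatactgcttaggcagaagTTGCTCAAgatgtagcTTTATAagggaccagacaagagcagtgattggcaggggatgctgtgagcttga

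The windows of the other genes with a C/EBP-type match are those of Ltf at chr9:111019042-111019341, Ngp at chr9:110419558-110419857, with 2 such matches, and Retnlg at chr16:48872358-48872657, all on the forward strand and shown for these matches, in capitals with any others.
Ltf: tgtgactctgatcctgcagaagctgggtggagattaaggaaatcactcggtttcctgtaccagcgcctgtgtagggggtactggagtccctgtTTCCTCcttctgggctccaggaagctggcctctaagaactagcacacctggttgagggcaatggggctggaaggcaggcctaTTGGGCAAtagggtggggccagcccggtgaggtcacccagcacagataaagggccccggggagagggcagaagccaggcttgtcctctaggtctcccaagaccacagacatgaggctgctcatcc
Ngp: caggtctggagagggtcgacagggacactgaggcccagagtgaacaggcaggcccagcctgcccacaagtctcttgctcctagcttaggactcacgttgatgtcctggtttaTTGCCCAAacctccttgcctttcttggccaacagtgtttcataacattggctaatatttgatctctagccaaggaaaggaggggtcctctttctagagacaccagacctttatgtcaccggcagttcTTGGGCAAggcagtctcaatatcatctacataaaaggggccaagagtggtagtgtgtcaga
Retnlg: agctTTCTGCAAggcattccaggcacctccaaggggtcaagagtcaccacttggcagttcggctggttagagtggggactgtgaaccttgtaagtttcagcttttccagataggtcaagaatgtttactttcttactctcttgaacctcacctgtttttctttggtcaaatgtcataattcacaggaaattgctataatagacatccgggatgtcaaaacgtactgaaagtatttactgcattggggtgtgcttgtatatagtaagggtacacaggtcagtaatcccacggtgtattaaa

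The scaling sets where 0 lies in these comparisons. The median log2 fold change over all genes was 0.18 in 14 d macrophages with TMM and 0.60 on library totals, and 0.28 and 0.69 in 3 d monocytes. The share of called genes that were higher was 63.3% with TMM and 84.1% on totals for macrophages at 14 d, 64.5% and 87.0% for 14 d against 3 d, 76.1% and 95% for monocytes at 3 d, 37.1% and 48.6% at 14 d and 20.2% and 5.97% for 14 d against 3 d. For the difference between cell types it was 18.7% and 7.19% at 3 d and 45.9% and 81.3% at 14 d.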

How the data were processed

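RNA was measured in 10 sorted macrophage samples (4 control, 3 at 3 d, 3 at 14 d) and 12 sorted monocyte samples (4, 4 and 4). Per the labels and methods, the authors made the deposited counts from poly(A)-enriched libraries; their processing notes name STAR 2.7.2c and 2.7.3a, featureCounts 1.6.3, DESeq2 1.26.0 and 1.28.1 and GRCm38, without saying which version served which table. The macrophage table holds 31134 genes and no gene under 6 counts in all, and that for monocytes 55421, of which 6505 have no count.

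Each cell type was fitted alone over its 3 groups in edgeR 4.0.16 (R 4.3.3, limma 3.58.1), with filterByExpr, TMM scaling and robust quasi-likelihood F tests, and p-values adjusted by the Benjamini-Hochberg method over all genes tested. Calls required an adjusted p under 0.05 and a fold above 1.5. Comparisons were 3 d and 14 d against control and 14 d against 3 d, and the difference between cell types came from 1 fit of 22 samples. The filter passed 9 of 10 members in macrophages (not Camp) and 10 of 10 in monocytes. The fits were tested on simulated data. Levels are CPM on TMM-scaled totals, log2 CPM use a prior count of 2, and levels per kb use exon lengths of GENCODE M21 on GRCm38. The most abundant or leading gene of a list is the one with the highest mean CPM, with no correction for exon length. Likeness is the Pearson correlation of log2 CPM with the mean of the standardized members, among genes with a mean log2 CPM above 3. Tables and figures were made in Python 3.11.15.

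Alternatives were DESeq2 1.42.0, scaling by library totals, no filter on low counts, no fold limit, replicate number as a block, only the compared groups in the fit, a prior count of 0.5 and each library left out in turn. The 2 added after seeing the data were a filter on mean log2 CPM above 1 and the removal of monocyte control libraries 3 and 4. Replicate numbers were compared for pairing, and the 30 pairs of libraries within groups were checked for duplicates, with 0 found.

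The genes named are the members, the called and the most abundant genes of 7 lists of neutrophil biology and of lists of cell type and sex-linked markers, and the 10 genes most like the members in each cell type. The members and lists were chosen with earlier results of these data known.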

Additional observations from a re-analysis of the deposited data

Results flagged for a closer look

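S100a9 in the third control macrophage library had a log2 CPM of 2.69, far above the other 3 controls in a gap test for groups of 4, and the fitted 14 d difference of S100a9 was larger without it. Camp in the second control macrophage library had a log2 CPM of -1.62, far from the other controls, and this rests on 2 counts against 0 in each of the others. In all 40 groups of 4 samples were checked, 2 stood out, and chance at 1 in 20 would give 2.

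Mmp8 differed between the cell types at 14 d, with no overlap between groups in either. Its log2 fold change from control was -2.43 in macrophages and 1.52 in monocytes, and the difference is given with no p-value because the macrophage level chose the gene.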

How the results depend on the processing

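Under the alternatives other than leaving out a library, the log2 fold changes of the members kept their direction and side of the threshold in 429 comparisons, gained the call in 18, lost it in 11, moved by more than the SE in 4 where no test applies, and reversed in 4. The reversals were all in monocytes. Ltf at 3 d went from -0.51 to 0.92 without control libraries 3 and 4, an alternative chosen after seeing the members' levels, from which nothing is read. With the replicate block Camp at 3 d went from 0.61 to -0.43, Ngp at 3 d from 0.26 to -0.60, and Cxcr2 from 3 d to 14 d from -0.33 to 0.17. The cause was not tested.

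The filter on mean log2 CPM above 1, chosen after seeing the data, tests fewer genes. With it the genes called fell from 13051 to 5013 in macrophages at 14 d, 11806 to 4239 for 14 d against 3 d, 11053 to 1453 in monocytes at 3 d, 10097 to 1565 for 14 d against 3 d, and 4995 to 1197 and 9828 to 3737 for the cell type difference at 3 d and 14 d. The share called moved as well, from 62.3% to 38.5%, 56.4% to 32.6%, 49.4% to 13.1%, 45.2% to 14.2%, 18.7% to 10.2% and 36.8% to 31.8% in this order, and from 8.42% to 15.8% in monocytes at 14 d. With no filter on low counts, which tests more genes, they were 19592 in monocytes at 3 d and 16664 for 14 d against 3 d. In macrophages at 3 d they went from 267 to 727 in DESeq2 and 133 with the replicate block, and the cause was not tested.

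Members called in macrophages at 3 d went from 1 to 2 in DESeq2, with the mean log2 CPM filter and with only the 2 groups compared, and to 0 on library totals and with no filter on low counts. In monocytes at 3 d members called went from 3 to 5 in DESeq2, on library totals and without control libraries 3 and 4, beside 49.7%, 45.7% and 39.4% of all genes. They went to 2 with no filter on low counts, the mean log2 CPM filter, the replicate block or only the 2 groups compared. There the shares were 40.1%, 13.1%, 48.4% and 49.7%. In monocytes at 14 d members called went from 1 to 3 in DESeq2 and without control libraries 3 and 4, beside 11.8% and 8.24% of all genes. They went to 2 with the mean log2 CPM filter, the replicate block or only the 2 groups compared, beside 15.8%, 8.13% and 12.6%. For 14 d against 3 d in monocytes they went from 2 to 1 with no filter on low counts and with the replicate block, and to 0 with the mean log2 CPM filter. Beside these stand 34.1%, 44.5% and 14.2% of all genes. For the cell type difference DESeq2 called 1 member at 3 d in place of 0, beside 24.6% of all genes. The replicate block left 1 of 5 at 14 d, beside 28.2%, a count from which nothing is read. Beside these shares the members' counts under the alternatives say nothing particular about the members. The cause of their moves was not tested.

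With 1 library left out, genes called ranged from 77 to 1478 in macrophages at 3 d, 1157 to 1904 in monocytes at 14 d and 2273 to 5367 for the cell type difference at 3 d. In monocytes they ranged from 9758 to 13835 at 3 d and from 8554 to 12752 for 14 d against 3 d. For the cell type difference at 14 d they ranged from 7881 to 10600. Members called ranged from 0 to 1 in macrophages at 3 d, 1 to 4 in monocytes at 3 d, 1 to 3 at 14 d, 1 to 2 for 14 d against 3 d, and 0 to 1 and 3 to 5 for the cell type difference at 3 d and 14 d. Where a test applies, log2 fold changes that reversed ranged from -0.10 to 0.64 for Mmp8 and -1.0 to 0.21 for Ngp in macrophages at 3 d. In monocytes at 3 d the ranges were -1.01 to 0.37 for Ltf, -0.74 to 1.77 for Camp and -0.81 to 0.93 for Ngp. For 14 d against 3 d in monocytes they were -0.80 to 0.19 for S100a8, -0.82 to 0.00 for S100a9, -1.5 to 0.35 for Mmp9, -1.74 to 0.06 for Retnlg and -0.64 to 0.41 for Cxcr2. For the cell type difference at 3 d they were -1.56 to 0.91 for S100a9, -0.63 to 0.02 for Mmp8, -1.30 to 0.48 for Mmp9, -3.15 to 1.37 for Camp, -1.44 to 0.46 for Ngp and -0.21 to 1.97 for Retnlg. Where no test applies, Ltf in macrophages at 14 d against 3 d also changed sign (-0.40 to 0.49). So did Ltf (0.61 to -0.36) and Cxcr2 (0.87 to -0.20) for the cell type difference at 14 d. The cause was not tested.

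Samples with the same replicate number had residuals correlated at -0.053 to 0.228 in macrophages (9 pairs, 2 over 0.1) and -0.169 to 0.525 in monocytes (12 pairs, 3 over 0.1). For different numbers the values were -0.197 to 0.18 (24 pairs, 3 over 0.1) and -0.457 to 0.289 (36 pairs, 9 over 0.1). Between control and 14 d monocytes the same numbers gave 0.325, 0.189, 0.088 and 0.525, and different numbers -0.457 to 0.289. The main fits did not pair samples by number, and a link between such monocyte samples is not excluded. Depth limits Camp and Ly6g in macrophages, where 3 counts stand at 0.439 to 0.651 CPM on unscaled totals in the 14 d libraries.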

Other observations

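Of the other marker lists in macrophages at 14 d, 1 of 6 T cell genes rose (Cd3e), 1 of 5 NK cell genes rose (Eomes) and 1 fell (Gzma), 1 of 6 B cell genes fell (Jchain), 2 of 7 epithelial genes rose (Sftpb and Krt18) and 3 fell (Sftpc, Sftpa1 and Epcam), and 1 of 2 platelet genes rose (Itga2b). These stand beside 62.3% of all genes called, and Eomes reached the filter only through the 14 d samples. Of the 5 sex-linked genes 4 rose and Xist fell. The 4 that rose (Ddx3y, Uty, Eif2s3y and Kdm5d) reached the filter only through the 14 d samples. In monocytes 5 of 6 B cell genes fell at 3 d and 6 of 6 at 14 d.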
